A study of Mus musculus with 2 samples.

Results

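The chains of the fibrillar collagens of skin and of the fibril-associated collagens bound to them, *Col1a1*, *Col1a2*, *Col3a1*, *Col5a1*, *Col5a2*, *Col5a3*, *Col12a1*, *Col14a1* and *Col16a1*, were taken by gene symbol from the RNA-Seq counts of primary chondrocytes and primary dermal fibroblasts. All 9 symbols were found among the 24421 rows of the count table. Both cell types were released with collagenase from tissue of newborn mice, the chondrocytes from rib cartilage and the dermal fibroblasts, the non-cartilage control, from back skin. The chondrocytes had been passaged at most 2 times. The study did not take sex into account, and for the newborn mice behind these libraries the strain, the number of animals and any pooling are not given in the sources used here. Each cell type had 1 library, with 18788599 counts for chondrocytes and 17563724 for dermal fibroblasts. No difference below therefore has a replicate check and no p-value was computed.

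Fibrillar collagens are secreted as procollagens of 3 chains wound into a triple helix, and after removal of their propeptides they pack side by side into the banded fibrils that carry tension. Skin is built mainly on type I fibrils that also hold type III and a small amount of type V, whereas the fibrils of hyaline cartilage are built on types II and XI. The fibril-associated collagens with interrupted triple helices (FACIT) do not form banded fibrils of their own, but decorate fibril surfaces and link them to other matrix components.

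Levels are given as CPM, the deposited counts scaled to a library total of 1000000 after that total was corrected with the trimmed mean of M-values (TMM) factor. A fold is the CPM in dermal fibroblasts over the CPM in chondrocytes unless stated otherwise, and each interval is a 95% Clopper-Pearson interval that covers only the error of counting. PCR copies read without molecular identifiers are not separate molecules. Of the 9 chains, 7 were over 2-fold higher in dermal fibroblasts, 0 were over 2-fold higher in chondrocytes and 2 lay within 2-fold. Among the 14291 genes with at least 10 counts in either library, 16.2% were over 2-fold higher in dermal fibroblasts and 11.8% in chondrocytes. All 9 chains passed this filter, and the lowest count of any chain in either library was 1790. Among the 4345 genes with at least 1000 counts in either library, the shares were 13.5% and 8.42%. The median log2 fold of the 9 chains was 1.76, against a median of -0.01 over these 4345 genes and 0.0035 over the 14291 genes. In a bulk library, a lower number of cells of one type and less RNA per cell cannot be told apart.

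Together the 9 chains took 0.906% of all counts in chondrocytes (interval 0.902% to 0.911%) and 5.95% in dermal fibroblasts (interval 5.94% to 5.96%). Their summed CPM was higher in dermal fibroblasts by 5.97-fold (interval 5.94 to 6.005). By collagen class, types I and III differed most, at 7.96-fold (interval 7.91 to 8.02), type V stood at 3.25-fold (interval 3.21 to 3.28) and the 3 FACIT chains at 1.89-fold (interval 1.87 to 1.92). The FACIT value was carried by *Col12a1*, which held 38655 of the 46688 FACIT counts in dermal fibroblasts, whereas *Col14a1* and *Col16a1* were lower there than in chondrocytes. The make-up of the chains' counts shifted accordingly. Types I and III made up 61.8% of the chains' counts in chondrocytes and 82.4% in dermal fibroblasts, while type V fell from 24.1% to 13.1% and the FACIT chains from 14.1% to 4.47%.

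*Col1a1* encodes the α1 chain of type I collagen, the main collagen of skin, tendon and bone, and lies on chromosome 11 (94936224 to 94953042, GRCm38). It drew 39143 chondrocyte counts and 322379 dermal fibroblast counts, or 2184 and 17511 CPM, and was higher in dermal fibroblasts by 8.02-fold (interval 7.94 to 8.10). No other gene of the table drew more reads in dermal fibroblasts. *Col1a2* on chromosome 6 (4505618 to 4541543) encodes the α2 chain, which joins a pair of α1 chains in the type I molecule. It drew 34091 chondrocyte counts and 265777 dermal fibroblast counts, or 1902 and 14436 CPM, a 7.59-fold difference (interval 7.51 to 7.68). Both genes of the type I heterotrimer thus differed by nearly the same factor although they lie on different chromosomes. *Col3a1* on chromosome 1 (45311538 to 45349706) encodes the chain of the type III homotrimer, which is abundant in young skin and in vessel walls and shares fibrils with type I. It drew 32090 chondrocyte counts and 273385 dermal fibroblast counts, or 1790.3 and 14849.6 CPM, and its 8.29-fold difference (interval 8.20 to 8.39) was the largest of the 9 chains.

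The type I and type III chains were far from absent in primary chondrocytes. By number of reads *Col1a1* stood at position 30 of all genes in that library, *Col1a2* at 35 and *Col3a1* at 43, although long and short genes draw reads unequally. The chondrocyte level as a share of the dermal fibroblast level was 12.5% for *Col1a1* (interval 12.3% to 12.6%), 13.2% for *Col1a2* (interval 13.03% to 13.3%) and 12.1% for *Col3a1* (interval 11.9% to 12.2%). These 3 shares lay close together, whereas the corresponding shares of the type V and FACIT chains ranged from 20.6% for *Col5a3* to 138% for *Col16a1*.

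Type V collagen is a minor component of type I fibrils that starts their assembly and limits their diameter, and loss of a working copy of its main chain causes classic Ehlers-Danlos syndrome. *Col5a1* on chromosome 2 (27886381 to 28039510) encodes the α1 chain that most type V molecules contain. It drew 19259 chondrocyte counts and 58294 dermal fibroblast counts, or 1074 and 3166 CPM, a 2.95-fold difference (interval 2.90 to 2.996). *Col5a2* on chromosome 1 (45374331 to 45503282), the gene of the α2 chain, drew 19949 chondrocyte counts and 69560 dermal fibroblast counts, or 1113 and 3778 CPM, and was higher in dermal fibroblasts by 3.39-fold (interval 3.34 to 3.45). *Col5a2* was the middle chain of the 9 by fold. *Col5a3* on chromosome 9 (20770050 to 20815117) encodes the α3 chain, which occurs in a type V heterotrimer of more restricted distribution. It drew 1790 chondrocyte counts and 8927 dermal fibroblast counts, or 99.9 and 485 CPM. Its fold of 4.86 (interval 4.61 to 5.11) was above those of *Col5a1* and *Col5a2*, and the intervals of the 3 type V chains did not overlap one another.

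The genes *Col3a1* and *Col5a2* are neighbours on chromosome 1. They point toward each other with 24624 bases between their ends and 0 other genes of the RefSeq gene table between them. As neighbours, *Col3a1* was 8.29-fold and *Col5a2* 3.39-fold higher in dermal fibroblasts, so their ratio changed between the libraries.

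The 3 FACIT chains did not move together. *Col12a1* on chromosome 9 (79598987 to 79721141) encodes the chain of type XII collagen, a homotrimer on type I fibrils of dermis, tendon, fascia and periosteum. It drew 13559 chondrocyte counts and 38655 dermal fibroblast counts, or 756 and 2099.7 CPM, and was higher in dermal fibroblasts by 2.78-fold (interval 2.72 to 2.83). *Col14a1* on chromosome 15 (55307644 to 55520803) encodes type XIV collagen, which is structurally close to type XII and takes part in the regulation of fibril growth in skin and tendon. It drew 2489 chondrocyte counts and 2123 dermal fibroblast counts, or 139 and 115 CPM, and was 1.20-fold higher in chondrocytes (interval 1.14 to 1.28). *Col16a1* on chromosome 4 (130047817 to 130099277) encodes type XVI collagen, which is found near the dermal-epidermal junction and on fibrils of cartilage. It drew 7947 chondrocyte counts and 5910 dermal fibroblast counts, or 443 and 321 CPM, and was 1.38-fold higher in chondrocytes (interval 1.34 to 1.43). *Col14a1* and *Col16a1* were thus the 2 chains of the 9 with more counts in chondrocytes, and they kept this direction under each of the 9 alternative scalings and floors, with log2 folds from -0.39 to -0.06 for *Col14a1* and from -0.59 to -0.25 for *Col16a1*. For *Col14a1* the choice of scaling alone thus moved the difference close to 0.

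**Figure D1:**
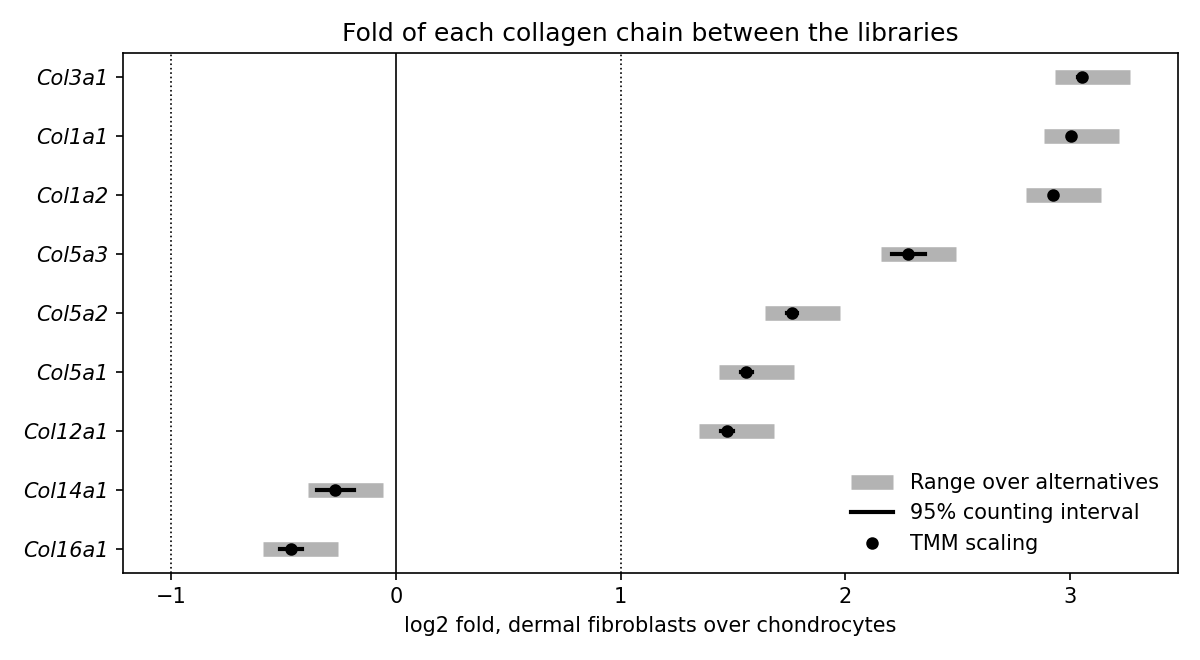
Log2 fold of each of the 9 chains, dermal fibroblasts over chondrocytes, from 1 library of each cell type, with 95% counting intervals (black lines) and the range over the 9 alternative scalings and floors (grey bars). Dotted lines mark a 2-fold difference. *Col1a1*, *Col1a2* and *Col3a1* lie between 2.92 and 3.05, the type V chains between 1.56 and 2.28, *Col12a1* at 1.47, and *Col14a1* and *Col16a1* below 0.

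Ratios between chains compare their balance within a library, and the change of a ratio between libraries depends neither on the scaling of the libraries nor on gene length. The 11 pairs below were compared as ratios of counts, with 95% intervals from the Poisson error of the counts. For type I collagen, *Col1a1* over *Col1a2* was 1.15 in chondrocytes and 1.21 in dermal fibroblasts, a change of 1.06-fold (interval 1.04 to 1.07). *Col3a1* over *Col1a1* was 0.820 in chondrocytes and 0.848 in dermal fibroblasts, a change of 1.03-fold (interval 1.02 to 1.05). Both intervals left out 1, but these changes were small beside the 8.02-fold difference in the level of *Col1a1*.

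Within type V, the main pair also stayed close. *Col5a1* over *Col5a2* was 0.965 in chondrocytes and 0.838 in dermal fibroblasts, so the ratio in dermal fibroblasts was 0.868 times that in chondrocytes (interval 0.849 to 0.888). *Col5a3* over *Col5a1* moved further, from 0.0929 in chondrocytes to 0.153 in dermal fibroblasts, a 1.65-fold change (interval 1.56 to 1.74). The minor α3 chain thus had a larger place beside α1 in dermal fibroblasts.

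The balance of type V to the type I and III chains differed more. *Col5a1* over *Col1a1* was 0.492 in chondrocytes and 0.181 in dermal fibroblasts, a ratio 2.72-fold higher in chondrocytes (interval 2.67 to 2.77). *Col5a2* over *Col3a1*, the neighbouring genes, was 0.622 in chondrocytes and 0.254 in dermal fibroblasts, 2.44-fold higher in chondrocytes (interval 2.40 to 2.49). Relative to these type I and III chains, type V transcripts were richer in the chondrocyte library. Each type V chain nevertheless had its higher level in dermal fibroblasts. The chain of type II, on which cartilage fibrils are built, was not part of these ratios.

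For the FACIT chains the shift relative to type I was larger still for some members. *Col12a1* over *Col1a1* was 0.346 in chondrocytes and 0.120 in dermal fibroblasts, 2.89-fold higher in chondrocytes (interval 2.83 to 2.95), a change similar in size to that of *Col5a1* over *Col1a1*. *Col14a1* over *Col1a1* was 0.0636 and 0.00659, 9.66-fold higher in chondrocytes (interval 9.10 to 10.2), and *Col16a1* over *Col1a1* was 0.203 and 0.0183, 11.1-fold higher in chondrocytes (interval 10.7 to 11.5). Within the class, *Col14a1* over *Col12a1* was 0.184 in chondrocytes and 0.0549 in dermal fibroblasts, 3.34-fold higher in chondrocytes (interval 3.14 to 3.55). *Col12a1* over *Col16a1* was 1.71 in chondrocytes and 6.54 in dermal fibroblasts, 3.83-fold higher in dermal fibroblasts (interval 3.69 to 3.99). Type XII was thus the FACIT collagen of the 3 that kept nearest to the type I chains.

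**Figure D2:**
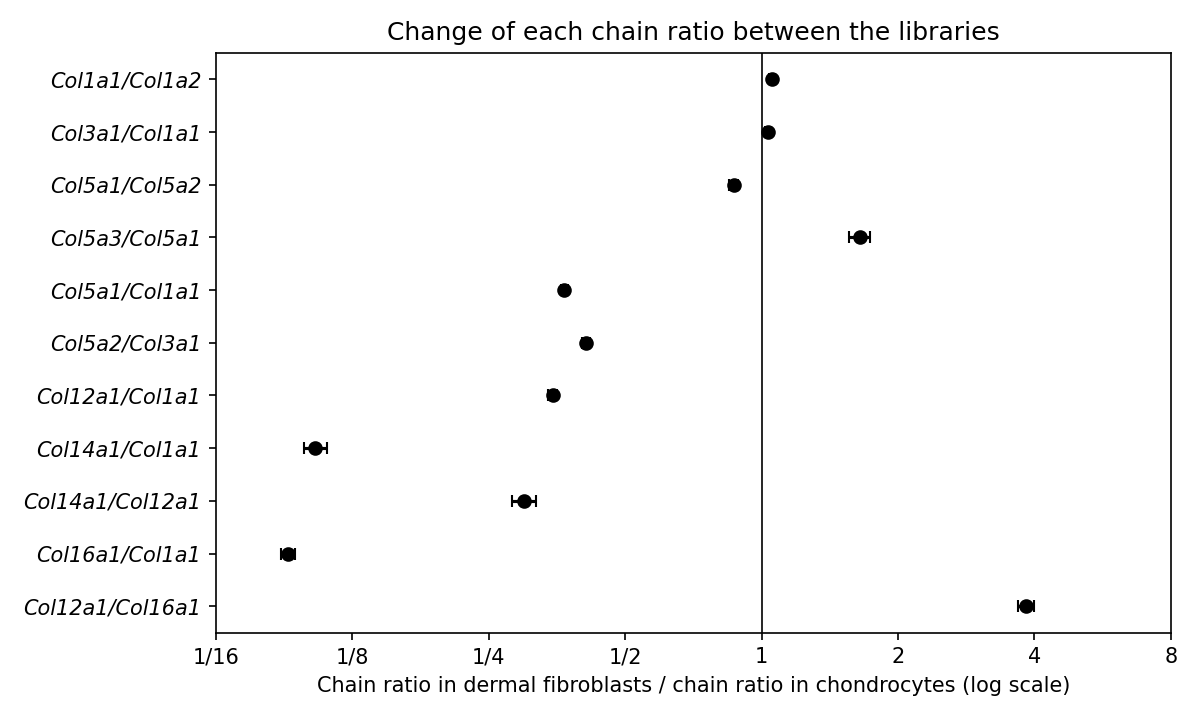
Change of each of the 11 chain ratios between the libraries, as the ratio of counts in dermal fibroblasts over that in chondrocytes on a log scale, with 95% counting intervals. *Col1a1*/*Col1a2* (1.06) and *Col3a1*/*Col1a1* (1.03) lie close to 1, and *Col16a1*/*Col1a1* lies farthest from it.

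To compare the levels of different chains, CPM was divided by gene length in kilobases, taken as the union of all annotated exons of GENCODE vM1. On this scale *Col1a1* was the highest chain in both libraries, with 333 CPM per kb in chondrocytes and 2668 in dermal fibroblasts. *Col3a1* followed with 213 and 1769 CPM per kb, and *Col1a2* with 157 and 1189. *Col5a1* had 127 CPM per kb in chondrocytes and 373 in dermal fibroblasts, and *Col5a2* had 116 and 394, so the order of these 2 chains was reversed between the libraries. In chondrocytes, *Col16a1* came next with 65.7 CPM per kb, before *Col12a1* with 49.7, *Col14a1* with 19.8 and *Col5a3* with 14.7. In dermal fibroblasts, *Col12a1* came before *Col5a3*, *Col16a1* and *Col14a1*, with 138, 71.2, 47.6 and 16.5 CPM per kb. The counting intervals of neighbours in either order did not overlap. *Col5a3* was thus the lowest chain in chondrocytes, and *Col14a1* the lowest in dermal fibroblasts.

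These orders depend in part on the length used. With the longest annotated transcript in place of the exon union, *Col1a2* came before *Col3a1* in both libraries and *Col5a2* before *Col5a1* in both. The type I ratio moved most. Per kb of exon union, *Col1a1* was 2.12 times *Col1a2* in chondrocytes and 2.24 times in dermal fibroblasts, and per kb of the longest transcript 1.04 and 1.09 times. The exon union of *Col1a2* measured 12145 bases against 5347 for its longest transcript, whereas *Col1a1* measured 6563 and 5930. The proportion of α1 to α2 transcripts can therefore not be read from these counts, whereas its near equality between the libraries does not involve a length.

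**Figure D3:**
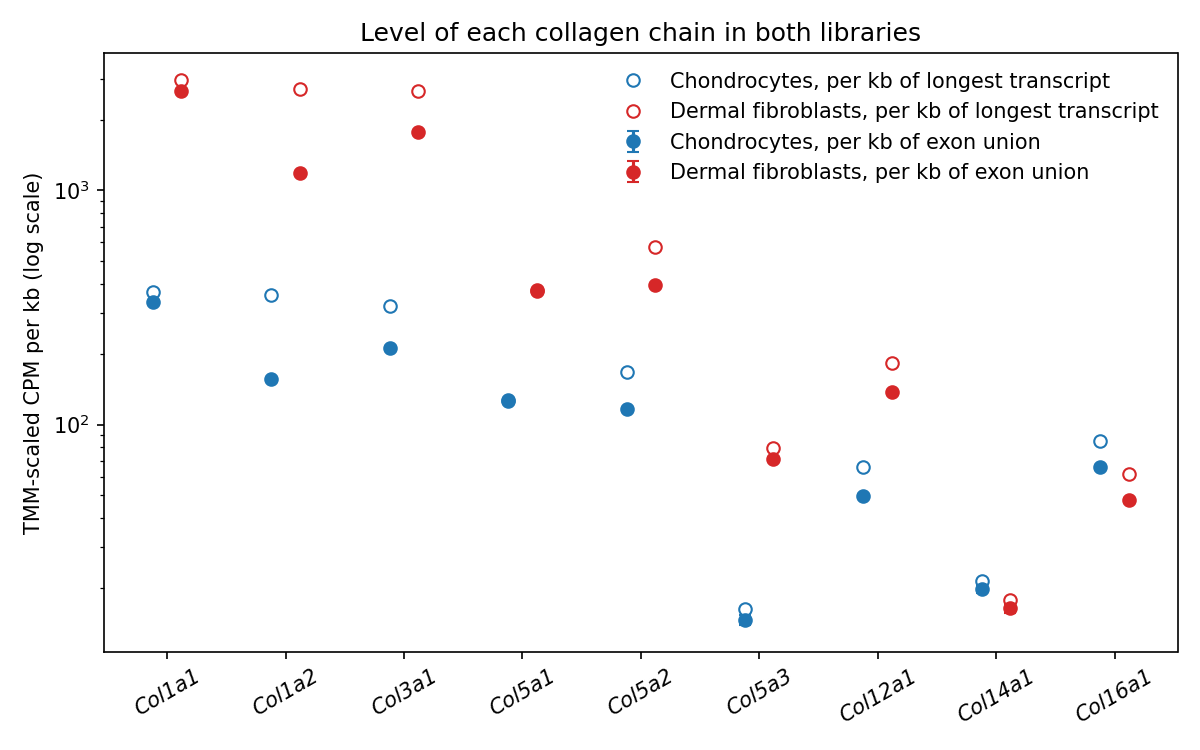
Level of each chain in CPM per kb on a log scale in chondrocytes and dermal fibroblasts, 1 library each. Filled points use the exon union, with 95% counting intervals, and open points the longest transcript. *Col1a1* is highest in both libraries, at 333 and 2668 CPM per kb of exon union.

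The other collagens of these classes show how far the chains made up the fibril-forming pool of each cell type. Per kb of exon union, the 6 fibrillar chains made up 5.82% of the summed level of 11 fibril-forming collagen genes in chondrocytes and 99.9% in dermal fibroblasts. In chondrocytes *Col2a1*, the chain of the main cartilage collagen, alone made up 81.1%, with 1447098 counts against 0 in dermal fibroblasts. The type XI chains *Col11a1* and *Col11a2* made up 7.42% and 5.27% of the pool in chondrocytes, with 211841 and 106437 counts against 839 and 48. Each type V chain had a smaller share of the pool in chondrocytes than in dermal fibroblasts. These shares were 0.767% and 5.76% for *Col5a1*, 0.703% and 6.09% for *Col5a2*, and 0.0889% and 1.10% for *Col5a3*. *Col11a1* and *Col5a1* are closely related and can share a molecule. Their ratio per kb of exon union, chosen after the values were seen, was 9.67 in chondrocytes. In dermal fibroblasts, by contrast, *Col5a1* exceeded *Col11a1* by 79.0 times. Per kb of the longest transcript, these values were 12.1 and 63.4. *Col27a1*, of the same superfamily, drew 13478 chondrocyte counts and 510 dermal fibroblast counts, and *Col24a1* had 77 and 235.

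The FACIT pool showed the same division. *Col12a1*, *Col14a1* and *Col16a1* made up 5.31% of the summed level per kb of 9 FACIT genes in chondrocytes and 99.1% in dermal fibroblasts. In chondrocytes the type IX chains, which coat type II fibrils, dominated, with 39.6% for *Col9a1*, 29.4% for *Col9a2* and 25.6% for *Col9a3*, and their counts in dermal fibroblasts were 1, 10 and 25. In dermal fibroblasts *Col12a1* made up 67.7% of the pool, *Col16a1* 23.3% and *Col14a1* 8.07%. *Col14a1* and *Col16a1* had their smaller share of the pool in chondrocytes although both had their higher CPM there. The remaining FACIT genes had few counts in chondrocytes and dermal fibroblasts, with 146 and 22 for *Col19a1*, 164 and 87 for *Col20a1*, and 19 and 0 for *Col22a1*, and *Col21a1* was not analysed here. Over the 11 genes of both classes outside the 9 chains, 1 was over 2-fold higher in dermal fibroblasts and 9 in chondrocytes, against 16.2% and 11.8% of all genes. Their median log2 fold was -8.02, with genes at 0 counted at a floor of 3 counts.

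The genes with the most similar differences were sought among 532 other genes with at least 5000 counts in dermal fibroblasts, by the distance of their log2 fold over the 2 libraries. Nearest to *Col1a1* were the guidance ligand *Slit3* (7.92-fold), *Fdps* of isoprenoid synthesis (7.61-fold), the collagen-degrading protease *Ctsk* (8.63-fold), the matrix protein gene *Postn* (7.13-fold) and the lipase gene *Lpl* (9.28-fold). The filter on dermal fibroblast counts favours genes that are high in that library, so the place of the chains among these genes is a description only. Nearest to the median of the 9 chains were the basement membrane zone collagens *Col15a1* (3.37-fold) and *Col18a1* (3.33-fold), the fibril-binding proteoglycan gene *Dcn* (3.43-fold), the chromatin remodeller gene *Chd3* (3.34-fold) and *Igfbp7* (3.32-fold).

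Lists of genes that act on collagen chains were set against the 16.2% of all genes with at least 10 counts that were over 2-fold higher in dermal fibroblasts and the 11.8% in chondrocytes. Of 20 genes for folding and modification, 0 were over 2-fold higher in dermal fibroblasts, 5 were over 2-fold higher in chondrocytes, and the median log2 fold was -0.44, against 1.76 for the chains. *Serpinh1*, the chaperone that binds the procollagen triple helix, drew 61409 chondrocyte counts and 44336 dermal fibroblast counts, *P4hb*, a subunit of prolyl 4-hydroxylase, had 35923 and 27950, and the general chaperone *Hspa5* had 30088 and 22314. *P4ha3* was 1.97-fold higher in dermal fibroblasts, and *Colgalt2*, a collagen galactosyltransferase, 53.75-fold higher in chondrocytes. The 3 genes with the most counts in this list were thus higher in the library in which the 9 chains were 5.97-fold lower. That library also held more of the 11 other fibrillar and FACIT collagens, which summed to 109257 CPM there and 96.5 CPM in dermal fibroblasts. A link of the folding genes to either group of collagens was not tested.

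Of 12 genes for procollagen secretion and cleavage with at least 10 counts, 4 were over 2-fold higher in dermal fibroblasts and 2 in chondrocytes. The shares of all genes were 16.2% and 11.8%, and the median log2 fold of the list was 0.65. *Adamts2*, which removes the amino-terminal propeptide of types I, II and III, drew 1014 chondrocyte counts and 11798 dermal fibroblast counts, an 11.3-fold difference (interval 10.6 to 12.1) that exceeded that of *Col1a1*. *Bmp1*, the carboxy-terminal propeptidase, was 4.63-fold higher (2363 and 11232 counts) and its enhancer *Pcolce* 2.83-fold higher (6769 and 19665 counts) in dermal fibroblasts. The related enhancer *Pcolce2* was 32.3-fold higher in chondrocytes (3142 and 100 counts).

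Of 18 partners in fibril assembly and crosslinking, 10 were over 2-fold higher in dermal fibroblasts and 5 in chondrocytes, with a median log2 fold of 1.25. The shares of all genes with at least 10 counts were 16.2% and 11.8%, for this and the next 2 lists. The genes with the most counts in this list were *Fn1*, with 674829 counts in chondrocytes and 116258 in dermal fibroblasts, *Sparc*, with 120019 and 115617, and *Bgn*, with 50802 and 106591. *Tnxb*, whose product tenascin-X binds dermal fibrils, was 28.5-fold higher in dermal fibroblasts, and the lysyl oxidase relative *Loxl4* was 35.2-fold higher in chondrocytes. Of 10 receptors for fibrillar collagens, 3 were over 2-fold higher in dermal fibroblasts and 2 in chondrocytes, with a median log2 fold of 0.23, counts that lie near these shares of all genes at this list size. *Itgb1*, *Mrc2* and *Ddr2* had the most counts and lay within 2-fold, *Itga2* was 7.52-fold higher in dermal fibroblasts and *Itga10* 35.6-fold higher in chondrocytes. Of 6 enzymes that degrade fibrillar collagen with at least 10 counts, 4 were over 2-fold higher in dermal fibroblasts and 1 in chondrocytes, with a median log2 fold of 1.59. *Mmp14* was 6.35-fold, *Mmp2* 2.96-fold and *Ctsk* 8.63-fold higher in dermal fibroblasts, and *Mmp13* was 7.90-fold higher in chondrocytes.

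The cell type labels were set against marker genes. For each marker list below, the shares of all genes with at least 10 counts were again 16.2% higher in dermal fibroblasts and 11.8% in chondrocytes. All 13 chondrocyte markers were over 2-fold higher in the chondrocyte library, with a summed level of 105972 CPM against 31.5 CPM, led by *Col2a1*, *Acan* (148105 and 35 counts) and *Col11a2*, and *Col2a1*, *Matn1* and *Lect1* had 0 counts in dermal fibroblasts. Of 12 dermal fibroblast markers, 10 were over 2-fold higher in dermal fibroblasts and 1, *Ebf2*, in chondrocytes, and their sum was 708 CPM in chondrocytes and 2991 CPM in dermal fibroblasts. None of these markers was at 0 in chondrocytes. *Dcn* had 5247 counts there and 18509 in dermal fibroblasts, *Pdgfra* had 2096 and 10527, *Thy1* had 562 and 11579, and *Crabp1* had 11 and 1786, a 158-fold difference. Over the 12 markers, the chondrocyte level as a share of the dermal fibroblast level ran from 0.633% for *Crabp1* to 372% for *Ebf2*. This range is too wide to place the 12.5% of *Col1a1*.

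Bone cells also make type I collagen. Of 8 osteoblast markers with at least 10 counts, 6 were over 2-fold higher in chondrocytes, and the sum over 11 genes was 673 CPM in chondrocytes and 245 CPM in dermal fibroblasts, most of it from *Spp1* (9639 and 3413 counts). *Ibsp* drew 349 chondrocyte counts and 1 dermal fibroblast count, *Alpl* had 734 and 173, *Runx2* 1051 and 778, and the defining marker *Bglap* had 6 and 0. Of 5 tendon markers, 3 were over 2-fold higher in chondrocytes and 1 in dermal fibroblasts, with sums of 224 and 27.6 CPM, led by *Thbs4* (3668 and 220 counts), while *Scx* had 160 and 58 and *Tnmd* 128 and 193. *Kera* was at 0 in chondrocytes and had 13 counts in dermal fibroblasts. Of 6 smooth muscle and myofibroblast markers, 4 were over 2-fold higher in dermal fibroblasts and 1, *Des* (3790 and 1655 counts), in chondrocytes, with sums of 845 and 1944 CPM, led by *Acta2* (9075 and 25773 counts) and *Tagln* (2041 and 7518), and *Myh11* was 4.92-fold higher in dermal fibroblasts. Of 9 skeletal muscle markers, 5 were over 2-fold higher in chondrocytes, with sums of 1356 and 856 CPM, led by *Myh3*, *Acta1* and *Myog*, and *Pax7* was 30.8-fold higher in chondrocytes.

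Of 7 keratinocyte markers, 5 were over 2-fold higher in dermal fibroblasts, with sums of 8.98 and 249 CPM, led there by *Krt14* (17 and 1939 counts), *Krt5* (1 and 1693) and *Dsp* (27 and 722). Of 6 endothelial markers, 5 were over 2-fold higher in dermal fibroblasts, with sums of 14.6 and 49.3 CPM, and *Vwf*, *Kdr*, *Cdh5* and *Pecam1* had 157, 276, 198 and 120 counts there. Of 6 macrophage markers, 1, *Csf1r*, was over 2-fold higher in dermal fibroblasts, with sums of 108 and 173 CPM, led by *Lyz2* and *Cd68*. Of 10 housekeeping genes, 9 lay within 2-fold, *Eef1a1*, *Actb* and *Rplp0* among them, and *B2m* was 5.73-fold higher in dermal fibroblasts, with *Hprt* 1.86-fold higher in chondrocytes. Of the marker genes, 3 for chondrocytes, 3 for dermal fibroblasts and 1 for tendon are also in the lists of collagens or assembly partners above. The part of any of these cell types in the levels of the 9 chains was not tested.

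Promoter windows from 250 bases before to 50 bases after the start were matched for 5 of the 9 chains in the RefSeq table (GRCm38.p6), *Col1a2*, *Col3a1*, *Col5a1*, *Col5a3* and *Col16a1*, and not for *Col1a1*, *Col5a2*, *Col12a1* and *Col14a1*. The start is that of the promoter table, which equals the gene start given above for *Col1a2* and *Col3a1* but lies inside the gene span for *Col5a1*, *Col5a3* and *Col16a1*, so that part of the bases before the start falls within these 3 genes. The letters searched on both strands were CCAAT, found in 37.4% of the 32851 windows of the table, TATAAA, found in 13.6%, GGGCGG, found in 35.7%, CAGACA, found in 21.0%, and GTCTAGAC, found in 0.213%. *Col1a2* and *Col3a1*, the chains with a 7.59-fold and an 8.29-fold difference, are shown to set side by side the upstream sequence of chains that moved alike. The 250 bases before the start lie at chr6:4505368-4505617 on the plus strand for *Col1a2* and at chr1:45311288-45311537 on the plus strand for *Col3a1*, in lower case with the matches in capitals.
Col1a2: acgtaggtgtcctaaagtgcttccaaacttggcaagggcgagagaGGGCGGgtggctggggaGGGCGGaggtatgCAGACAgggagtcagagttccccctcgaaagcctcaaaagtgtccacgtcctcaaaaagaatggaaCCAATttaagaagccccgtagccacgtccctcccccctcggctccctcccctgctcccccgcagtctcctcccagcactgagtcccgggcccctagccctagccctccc
Col3a1: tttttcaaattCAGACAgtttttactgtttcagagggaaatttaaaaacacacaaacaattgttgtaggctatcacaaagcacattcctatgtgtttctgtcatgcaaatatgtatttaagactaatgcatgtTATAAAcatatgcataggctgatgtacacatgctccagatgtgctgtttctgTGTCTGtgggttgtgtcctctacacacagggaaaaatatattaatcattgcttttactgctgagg
The 250 bases before the start differed in composition, with 62% G and C for *Col1a2* and 35.2% for *Col3a1*, against a median of 52.4% over the same stretch of all windows. In the whole window *Col1a2* held 2 matches of CCAAT, 2 of GGGCGG and 1 of CAGACA, and *Col3a1* held 1 match of TATAAA and 2 of CAGACA. The motif that both windows held was CAGACA. *Col16a1*, which was higher in chondrocytes, held 1 match of CCAAT and 2 of GGGCGG, with 75.6% G and C before the start, *Col5a1* held 2 of GGGCGG and 1 of CAGACA, and *Col5a3* held 1 of CCAAT and 3 of GGGCGG. GTCTAGAC was in none of the 5 windows. A match describes these letters only, and binding was not tested.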

How the data were processed

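The authors sequenced stranded mRNA libraries as single-end reads, mapped them to mm10 with TopHat2 2.0.13, Bowtie2 2.2.3 and SAMtools 0.1.19, called bases with CASAVA 1.8.2, and deposited unnormalized whole read counts for each gene symbol. The counting program, its annotation and its strand setting are not given in the sources used here. In GENCODE vM1, *Col1a1* and *Col5a1* share 99 to 113 exon bases with genes on the opposite strand, whose reads could not be told apart without strand.

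Counts were scaled with TMM factors of edgeR 4.0.16 in R 4.3.3, and folds, intervals and ratios were computed in Python 3.11.15 with scipy 1.17.1, numpy 2.4.6 and pandas 2.3.3. A floor of 3 counts was applied before folds were taken. Gene positions are RefSeq GRCm38.p6, and exon lengths are GENCODE vM1. In 27 rows the symbol had become a date. The calculations were tested on simulated counts. Alternatives were other scalings, DESeq2 1.42.0 among them, floors, thresholds, filters and the longest transcript as length.

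The 9 chains and the gene lists were chosen with earlier results of these data known. From each list, among genes with over 100 counts, the 3 with the most counts and the largest fold in each direction were named, and other genes were named after their values were seen. The values of 1 gene of the marker lists are not reported here.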

Additional observations from a re-analysis of the deposited data

How the results depend on the processing

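Each fold was recomputed under 7 other scalings, which shift all genes alike, and under a floor of 10 counts and a pseudocount of 1, which can hardly move genes with 1790 or more counts. Of these 81 folds, 0 reversed. The 7 chains over 2-fold higher in dermal fibroblasts were 7 under each of these 9 alternatives and at a threshold of 1.5, and 4 at a threshold of 4. The median log2 fold of the 9 chains, 1.76 with TMM factors, was 1.90 with total counts, 1.73 with the upper quartile, 1.72 with totals lacking each library's 10 most abundant genes, 1.97 with total counts without the 9 chains, 1.64 with *Actb* and 1.88 with the housekeeping genes. The shift that each of these settings gave to all genes alike was over 0.1 for total counts (0.14), totals without the chains (0.21), *Actb* (-0.12) and the housekeeping genes (0.12). Relative to it, the differences among the chains did not change. Without the 10 most abundant genes that are not among the chains, the chains' share of counts was 1.12% in chondrocytes and 6.19% in dermal fibroblasts. With the longest transcript as length, the order of levels per kb changed for 4 chains in chondrocytes and 2 in dermal fibroblasts. No paired analysis was possible because there was 1 library per cell type. For the same reason, differences between animals, cultures or library preparations cannot be told apart from differences between the cell types.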
